A study of Mus musculus with 6 samples.

Results

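The genes described here encode proteins of the dystrophin glycoprotein complex: Dmd (dystrophin), Utrn (utrophin), Dag1 (dystroglycan) and Sgca, Sgcb and Sgce (alpha-, beta- and epsilon-sarcoglycan). They were taken as every probe set whose array annotation gives exactly 1 gene symbol and that symbol is 1 of these 6 genes. This gave 9 probe sets for 6 of the 8251 genes that the array names, among 10833 probe sets with 1 symbol and 12488 in all. A probe set is a group of short probes, summarised as 1 signal intensity per array. Whether the probes of a set also match other transcripts than those of the named gene was not examined. The samples were whole soleus muscle, a postural muscle rich in slow fibres, from male mice. The study's knockout samples were 3 from BERKO mice, in which Esr2, the gene of the nuclear receptor estrogen receptor beta, is disrupted. They were set against 3 samples from wild-type C57BL/6 mice. The labels give neither the strain and allele of the knockout nor the age of the mice, nor whether the samples of a group are separate animals. The p-values therefore describe the spread among these samples, which may be technical. Muscle samples also hold vessels, nerve and connective tissue, and in such bulk samples fewer cells of a type and less RNA per cell cannot be told apart.

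Dystrophin is a long rod-shaped protein under the muscle membrane. It binds actin inside the fibre and dystroglycan at the membrane, and dystroglycan binds laminin outside, so that the complex ties the cytoskeleton to the basement membrane. The sarcoglycans form a membrane subcomplex that stabilises this link, and loss of dystrophin or of single sarcoglycans causes muscular dystrophies. Utrophin is a homologue of dystrophin that in mature fibres lies mainly at the neuromuscular and myotendinous junctions.

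The arrays had median intensities between 36.8 and 40.5. The probe set of Esr2 read 8.4, 3.9 and 6.2 in the knockout and 2.2, 3.2 and 1.3 in wild type, and 5 of these 6 values lay at or below 7.8, the floor set under all values. At this level the labels could not be checked from the targeted gene. Among markers of muscle fibres, Myh7, the slow myosin heavy chain, read 7235 to 9902 over the 6 arrays and myoglobin, Mb, 6829 to 9799. The probe set of Myh2, the heavy chain of the type IIa fibres that mouse soleus also holds, read 2.2 to 23.4, below the threshold used for testing on every array. These readings do not tell soleus from another slow muscle. Replicate 2 of each group shares a title prefix that differs from that of the other 4 arrays, and what this prefix stands for is not given.

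The question put to these genes was whether their signal differed between Esr2 knockout and wild-type soleus. None of the 8 probe sets tested passed an adjusted p of 0.05 in limma, a linear model with a shared estimate of the spread (0 of 8, where 0% of all 6369 probe sets tested passed). At an unadjusted p under 0.05 the count was also 0 of 8, against 5.24% of all probe sets. The groups did not overlap for 1 of the 8, which is 12.5%, against 10.7% of all probe sets tested. The median log2 difference of the 8 probe sets was 0.019, and that of all tested probe sets was -0.016. The differences of the 8 probe sets ran from -0.33 to 0.16 on the log2 scale, with adjusted p between 0.958 and 0.998. Testing was limited to probe sets with readings above 39.4, the overall median, on 3 or more of the 6 arrays, and 1 of the 9 member probe sets, the dimmer one of Utrn, fell short. Levels of different probe sets are not compared here, since probes differ in how well they bind.

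**Figure D1:**
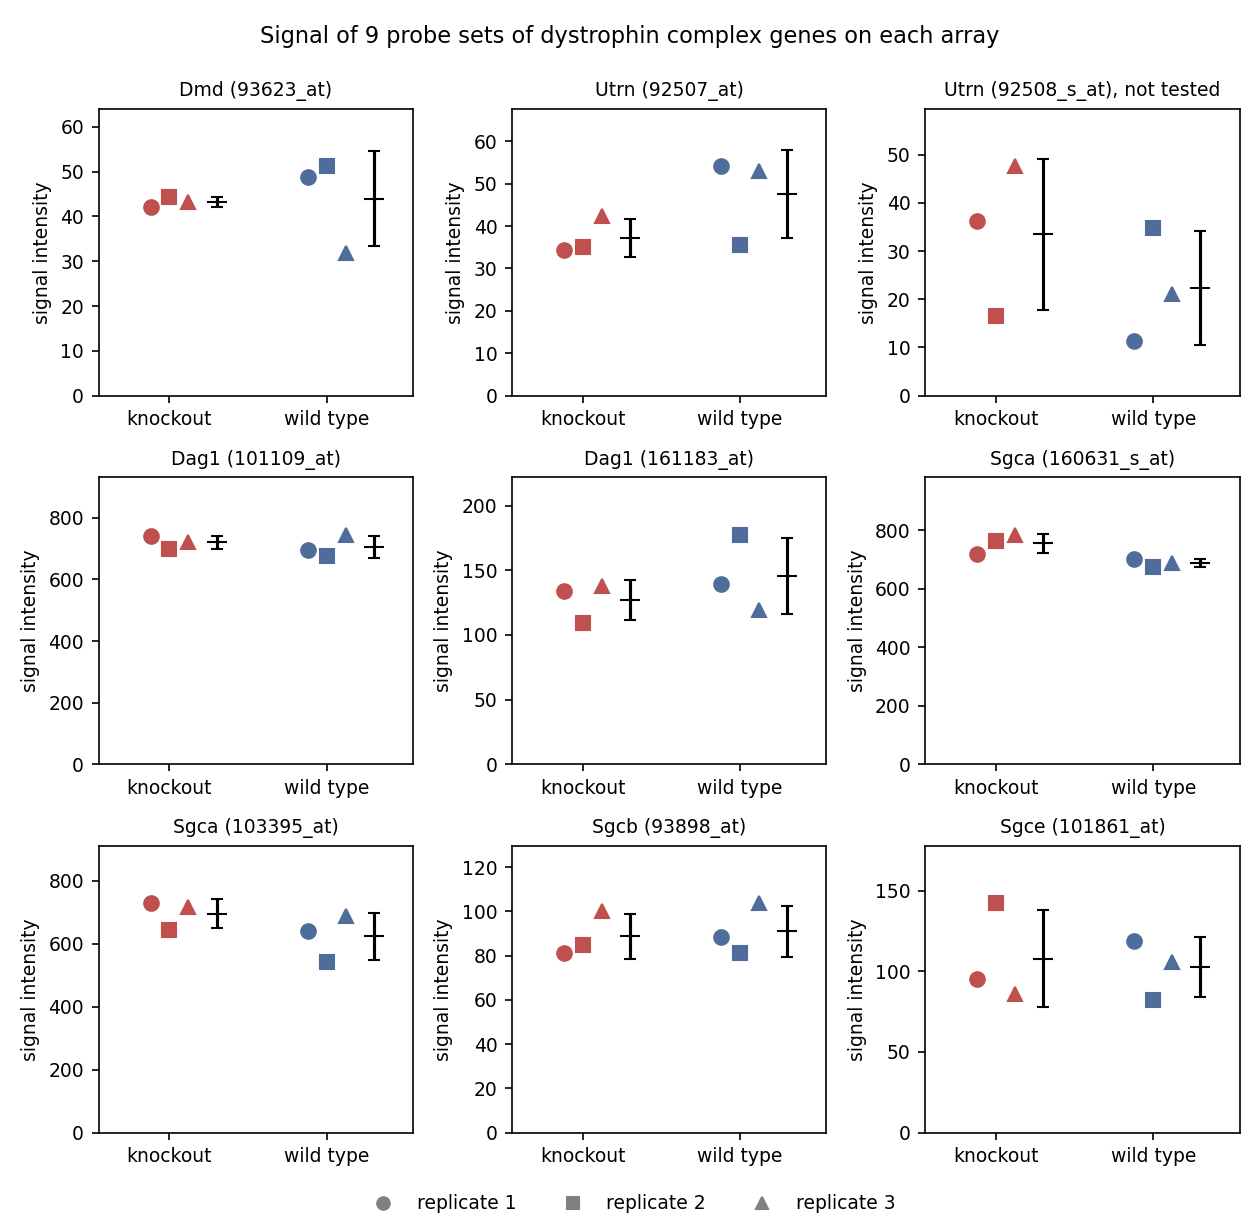
Signal intensity (linear, from 0) of each of the 9 probe sets on the 6 arrays, knockout left and wild type right. Symbols mark the replicate, and black bars give the mean and SD (n = 3). The groups are apart for the Sgca probe set 160631_s_at, where knockout arrays read 720.3 to 785.3 and wild-type arrays 675.3 to 701.1.

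Dystrophin, the actin-binding anchor of the complex, was nearly level between the groups. The Dmd probe set (93623_at) read 42.1, 44.4 and 43.3 in the knockout and 48.9, 51.2 and 31.9 in wild type. The 3 knockout arrays lay close together and within the range of the wild-type arrays, of which replicate 3 was the lowest of all 6. The means were 43.3 ± 1.15 in the knockout and 44.0 ± 10.5 in wild type (SD, n = 3 each). The log2 difference was 0.0064 ± 0.26 (SE; limma, adjusted p = 0.998), and the 95% interval of the fold, knockout over wild type, ran from 0.664 to 1.52. Without wild-type replicate 3 the difference was -0.21. These readings are near the threshold of 39.4, and a change within that interval was not detectable with these arrays. The gene has several promoters that give a full-length muscle protein and shorter forms, and which of these forms the probes detect was not examined here.

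The promoter of Dmd is shown because estrogen receptors can act by binding DNA at estrogen response elements. RefSeq sequences (build GRCm38.p6) were held for 5 of the 6 genes, with 7 transcription starts in all. The 250 bases before the upstream start of Dmd, chrX:82948620-82948869 on the plus strand, are printed 5′ to 3′ with matches to CANNTG, the E-box bound by myogenic transcription factors, in capitals on either strand.
Dmd: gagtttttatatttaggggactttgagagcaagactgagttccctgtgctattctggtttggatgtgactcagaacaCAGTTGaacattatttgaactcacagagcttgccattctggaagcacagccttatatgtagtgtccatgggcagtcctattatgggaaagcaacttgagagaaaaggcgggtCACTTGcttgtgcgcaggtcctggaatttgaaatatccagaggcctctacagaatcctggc
This window held 2 E-boxes and 1 match to GGTCA, the core of an estrogen response element, which overlaps the E-box nearer to the start. Among all 32851 promoter windows of the same length, 66.2% held an E-box and 35.2% held GGTCA on either strand. The full palindrome GGTCANNNTGACC was found in 0.0639% of all windows and in 0 of the 7 member windows. GGTCA was found in 1 further member window, that of Utrn, with 1 match. These matches describe letters in a window and are not known to be binding sites.

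Utrophin gave differences of opposite sign in its 2 probe sets. Probe set 92507_at read 34.3, 35.1 and 42.4 in the knockout and 54.1, 35.6 and 53.0 in wild type. The knockout arrays lay at the low end, but replicate 2 of wild type lay among them, so the groups overlapped. The means were 37.3 ± 4.46 in the knockout and 47.6 ± 10.4 in wild type (SD, n = 3 each), and the log2 difference was -0.33 ± 0.27 (SE; limma, adjusted p = 0.958; exact two-sided permutation p = 0.2, where the smallest p that 3 against 3 allows is 0.1). The 95% interval of the fold ran from 0.520 to 1.21. On the log2 scale this was the widest interval among the members. The other probe set, 92508_s_at, read 36.2, 16.6 and 47.6 in the knockout and 11.3, 34.8 and 21.0 in wild type. It exceeded the threshold on 1 array and was not tested, and its log2 difference was 0.60 with overlapping groups. Its sign turned with the title prefix, from 1.43 over the 4 arrays sharing a prefix to -1.07 between the other 2. For 92507_at the differences were -0.49 over those 4 arrays and -0.020 between the other 2. Genes of regenerating or denervated fibres, in which utrophin is known to be found outside the junctions, had summed signals of 473.1 to 486.6 in the knockout and 411.1 to 554.6 in wild type over 7 of 7 genes. Of the 4 of them that were tested, 2 were higher and 2 lower on average in the knockout and 0 passed. The brighter genes weigh most in that sum, and single genes differed by more. Ncam1, an adhesion protein of nerve and of developing muscle, read 61.5, 56.9 and 75.3 in the knockout and 40.8, 38.8 and 35.8 in wild type without overlap, a log2 difference of 0.74 with an adjusted p of 0.923 in limma. Myog, myogenin, stood at 1.21 with overlapping groups and the same adjusted p. The 2 lower genes, Chrna1 and Myod1, stood at -0.40 and -0.24 with overlapping groups. Among all probe sets tested the groups did not overlap for 10.7%. Chrng, a fetal acetylcholine receptor subunit below the threshold, read 9.8, 12.6 and 5.0 in the knockout and 15.9, 15.3 and 25.6 in wild type, also without overlap. Ncam1 has 3 probe sets and Chrng 2, and for each gene only the probe set of highest mean is given here. The part of the genes of regenerating or denervated fibres in the Utrn values was not tested.

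Whether utrophin moved against dystrophin was read within each array, where a scaling factor cancels. The log2 ratio of Utrn to Dmd, set to a mean of 0 in wild type, was -0.41, -0.46 and -0.15 in the knockout and 0.028, -0.64 and 0.61 in wild type. The wild-type arrays spanned the whole range of the knockout arrays. The mean was -0.34 ± 0.17 in the knockout and 0 ± 0.63 in wild type (SD, n = 3 each), a difference smaller than the spread between wild-type samples.

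**Figure D2:**
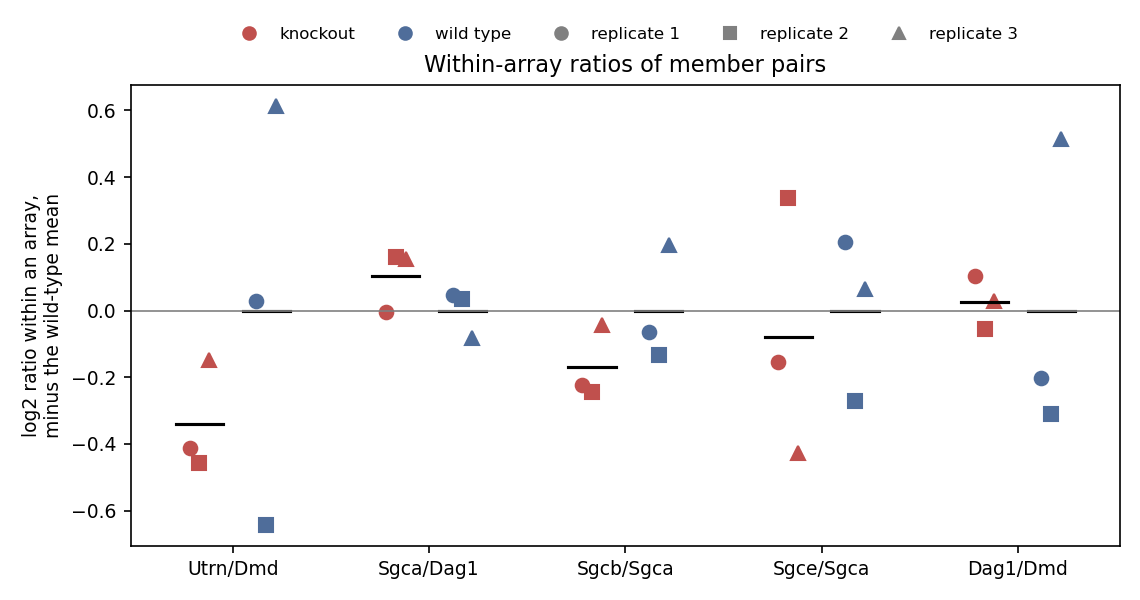
Log2 ratio of 2 members within an array, minus the mean of that ratio in wild type (vertical axis), for 5 pairs of members (horizontal axis), with the probe set of highest mean for each gene. Symbols mark the replicate and black lines the group means. In each of the 5 pairs the knockout and wild-type arrays overlap.

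Dystroglycan, the laminin receptor of the complex, was nearly level in its brighter probe set, where the replicates lay close. Probe set 101109_at of Dag1 read 740.4, 699.4 and 722.0 in the knockout and 694.6, 675.4 and 745.2 in wild type. All 3 knockout values lay inside the wild-type range. The means were 720.6 ± 20.5 in the knockout and 705.1 ± 36.1 in wild type (SD, n = 3 each), a coefficient of variation of 2.85% in the knockout and 5.11% in wild type. The log2 difference was 0.032 ± 0.098 (SE; limma, adjusted p = 0.993), and the 95% interval of the fold ran from 0.877 to 1.19. Of all tested probe sets, 1.95% had a smaller SD within the groups. The other Dag1 probe set, 161183_at, read 134.1, 109.2 and 137.6 in the knockout and 139.7, 177.5 and 119.6 in wild type, again with overlap. Its log2 difference was -0.19 ± 0.18 (SE; limma, adjusted p = 0.958) with a 95% interval of the fold from 0.667 to 1.16. The highest and the lowest of these 6 values were both replicate 2, and over the 4 arrays of the other title prefix the difference was 0.072. Probe set 101109_at turned to -0.022 after quantile normalization and -0.024 after cyclic loess, so whether the 2 probe sets of Dag1 differ in sign depends on the scaling. Neither difference passed the test.

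Alpha-sarcoglycan, a sarcoglycan made in striated muscle, read higher on average in the knockout in both of its probe sets, by amounts that did not pass the test. Probe set 160631_s_at of Sgca read 720.3, 763.8 and 785.3 in the knockout and 701.1, 675.3 and 687.9 in wild type. Every knockout array lay above every wild-type array, the only such separation among the 9 member probe sets. The means were 756.5 ± 33.1 in the knockout and 688.1 ± 12.9 in wild type (SD, n = 3 each). The log2 difference was 0.14 ± 0.097 (SE; limma, adjusted p = 0.958; exact two-sided permutation p = 0.1, the smallest possible), a fold of 1.10 with a 95% interval from 0.945 to 1.28. In this probe set too the replicates lay close, and 1.04% of all tested probe sets had a smaller SD within the groups. Probe set 103395_at read 727.8, 643.5 and 714.5 in the knockout and 641.2, 541.5 and 687.6 in wild type. Knockout replicate 2 lay below the highest wild-type array, so these groups overlapped. Its log2 difference was 0.16 ± 0.12 (SE; limma, adjusted p = 0.958; exact two-sided permutation p = 0.2) and the fold was 1.12, with a 95% interval from 0.926 to 1.35. Without wild-type replicate 2 it was 0.064.

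Other values differed between the groups in the same direction as Sgca. The summed signal of the 9 muscle fibre markers was 59350 to 62634 in the knockout and 46294 to 58195 in wild type, without overlap. The gap was narrow, between knockout replicate 1 at 59350 and wild-type replicate 2 at 58195. Within wild type the sum was highest in replicate 2, where both Sgca probe sets were lowest. Within the knockout the sum was lowest in replicate 1, where Sgca 160631_s_at was lowest and 103395_at highest. On average 8 of 8 tested markers were higher in the knockout, from 0.023 for Ckm to 0.29 for Acta1 in log2, with 0 passing. Over all tested probe sets 46.8% were higher. The difference between knockout and wild type also went with brightness: in the brightest of 5 equal groups of probe sets, which holds both Sgca probe sets and Dag1 101109_at, the median log2 difference over all of its probe sets was 0.054, and in the dimmest, which holds Dmd and Utrn 92507_at, it was -0.081. In the brightest group 65.4% of probe sets were higher on average in the knockout, and in the dimmest 38.6%. After quantile normalization, which makes the distribution of values the same on each array, the Sgca differences were 0.072 for 160631_s_at and 0.12 for 103395_at. The part of fibre content and brightness in the Sgca difference was not tested. Within an array, the log2 ratio of Sgca to Dag1, set to a mean of 0 in wild type, was -0.0056, 0.16 and 0.16 in the knockout and 0.048, 0.034 and -0.081 in wild type, and the groups overlapped.

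The 250 bases before the start of Sgca, chr11:94976328-94976577 on the minus strand of GRCm38.p6, are shown beside those of Dmd, since 1 of the 2 probe sets of this gene had groups that did not overlap, with the E-box in capitals.
Sgca: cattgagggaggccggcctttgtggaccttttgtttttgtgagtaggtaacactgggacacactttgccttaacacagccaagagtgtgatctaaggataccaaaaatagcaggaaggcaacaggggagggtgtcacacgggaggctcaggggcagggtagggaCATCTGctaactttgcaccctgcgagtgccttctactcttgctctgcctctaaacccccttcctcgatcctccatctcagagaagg
This window held 1 E-box, and GGTCA was not among its letters on either strand. Its share of G and C was 52.8%, against a median of 52.4% over all promoter windows.

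Beta-sarcoglycan, which is found both in muscle and in other tissues, was level between the groups. The Sgcb probe set (93898_at) read 81.2, 84.9 and 100.3 in the knockout and 88.3, 81.1 and 103.7 in wild type. Replicate 3 was the highest in each group, and the ranges of the groups nearly coincided. The means were 88.8 ± 10.1 in the knockout and 91.0 ± 11.5 in wild type (SD, n = 3 each). The log2 difference was -0.034 ± 0.16 (SE; limma, adjusted p = 0.996), with a 95% interval of the fold from 0.757 to 1.26. Its sign was positive after quantile normalization (0.0046), after cyclic loess (0.0069) and after scaling the arrays to a common median (0.032), so no direction can be given for this gene.

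Epsilon-sarcoglycan, a homologue of alpha-sarcoglycan that is made in many tissues, had the largest spread within groups, on the log2 scale, among the tested members. The Sgce probe set (101861_at) read 95.3, 142.2 and 86.0 in the knockout and 119.1, 82.3 and 106.0 in wild type. Knockout replicate 2 was the highest and wild-type replicate 2 the lowest of the 6 arrays. The means were 107.8 ± 30.1 in the knockout and 102.5 ± 18.7 in wild type (SD, n = 3 each). The log2 difference was 0.055 ± 0.22 (SE; limma, adjusted p = 0.996) with a 95% interval of the fold from 0.737 to 1.46. Over the 4 arrays sharing a title prefix the 2 knockout values lay below both wild-type values, and the difference was -0.31 (limma, adjusted p = 0.625). Between the other 2 arrays it was 0.79, with no test. The direction of the Sgce difference thus turned with the title prefix. Since Sgce is known from vessels and nerve as well as muscle, their markers are given beside it. Smooth muscle markers summed to 711.0 to 770.9 in the knockout and 654.6 to 744.1 in wild type over 5 of 6 genes, and Schwann cell markers to 401.1 to 471.7 in the knockout and 402.7 to 535.2 in wild type over 6 of 9 genes. Their part in the Sgce values was not tested.

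**Figure D3:**
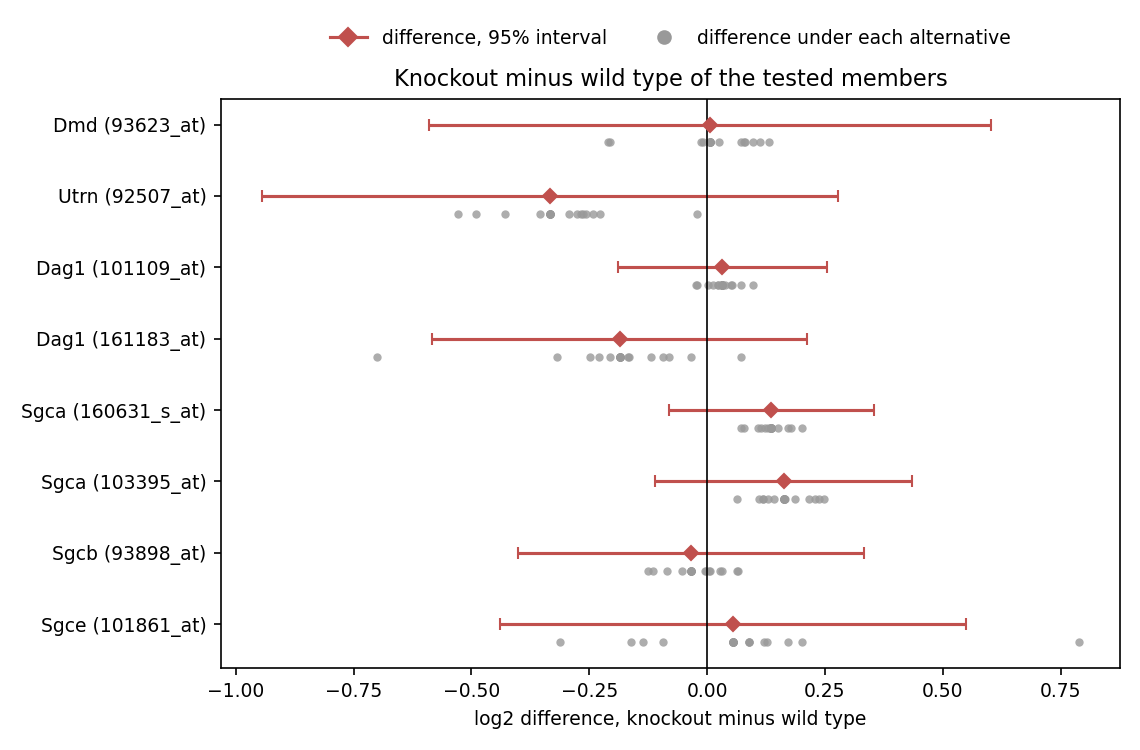
Log2 difference, knockout minus wild type (horizontal axis), of the 8 tested probe sets (rows), as red diamonds with the 95% interval of limma. Grey points give the same difference under each alternative processing. Every interval includes 0, and the grey points lie on 1 side of 0 for Utrn 92507_at and both Sgca probe sets.

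Markers of the remaining cell types a muscle sample can hold overlapped between the groups when summed per cell type. The summed signals were 911.8 to 1007.2 in the knockout and 953.5 to 1036.8 in wild type for 8 endothelial genes, and 4585 to 4979 in the knockout and 4346 to 5446 in wild type for 6 fibroblast genes. For 6 macrophage genes they were 478.8 to 544.1 in the knockout and 458.3 to 675.2 in wild type. For 4 of 6 adipocyte genes they were 364.8 to 394.8 in the knockout and 393.8 to 629.4 in wild type, an overlap of a single array in each group. Single genes differed by more. Tek, an endothelial receptor, read 60.3, 61.3 and 68.6 in the knockout and 73.2, 75.3 and 81.3 in wild type. Its groups did not overlap, as for 5.23% of all probe sets tested with the knockout lower (log2 difference -0.27, limma adjusted p = 0.958). Adipoq, adiponectin, stood at -0.90 with overlapping groups (limma, adjusted p = 0.923). On average 3 endothelial genes were higher and 5 lower in the knockout, and 1 adipocyte gene was higher and 3 lower. None of the markers measured lay at or below the floor on all 6 arrays, and none of those tested passed. Their part in the member values was not tested.

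Among other components of the complex, 8 of 13 listed genes had a named probe set and 3 were tested, of which 2 were higher and 1 lower on average in the knockout (median log2 difference 0.10; 0 passed). With single arrays left out that median ran from -0.040 to 0.21, so it gives no direction. Sspn, sarcospan, a membrane protein that associates with the sarcoglycans, read 489.7, 650.1 and 518.3 in the knockout and 447.8, 518.1 and 435.7 in wild type. The groups overlapped through a single wild-type array, and the log2 difference was 0.24 ± 0.14 (SE; limma, adjusted p = 0.958). Dtna, alpha-dystrobrevin, which binds dystrophin and the syntrophins, stood at 0.10 ± 0.19. Cav3, caveolin-3, stood at -0.12 ± 0.14, but its other probe set stood at 0.22, so no direction can be given. The components below the threshold were the syntrophins Sntb1 (7.6 to 17.5) and Sntb2 (2.3 to 5.0), Dtnb (4.5 to 14.8), delta-sarcoglycan Sgcd (9.9 to 25.5) and the neuronal nitric oxide synthase Nos1 (6.0 to 28.9), given as ranges of intensity over the 6 arrays.

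Outside the membrane, 12 of 14 genes for ligands and matrix partners of dystroglycan and the sarcoglycans were tested, of which 2 were higher and 10 lower on average in the knockout, with a median log2 difference of -0.062 and 0 passing. Over all tested probe sets 46.8% were higher. Col6a2, a chain of collagen VI, read 269.6 ± 38.5 in the knockout and 221.7 ± 34.0 in wild type (SD, n = 3 each), a log2 difference of 0.28 ± 0.16 (SE; limma, adjusted p = 0.942). Another chain, Col6a3, stood at -0.17. Lama2, the laminin alpha chain of the muscle basement membrane, read 117.3, 182.5 and 98.8 in the knockout and 150.6, 174.4 and 134.3 in wild type, with overlap, and its log2 difference was -0.25 ± 0.22 (SE; limma, adjusted p = 0.958). Lamb1, a laminin beta chain, stood at -0.20 and its dimmer, untested probe set at 0.37.

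Dystroglycan binds laminin through sugar chains. Of 17 listed genes for enzymes that add these chains or help make their sugar donors, 7 had a named probe set and 5 were tested. Of these 5, 3 were higher and 2 lower on average in the knockout (median log2 difference 0.0064, 0 passed). Dpm2, a subunit of the enzyme that makes dolichol phosphate mannose, read 161.6, 152.5 and 166.7 in the knockout and 168.8, 169.8 and 198.4 in wild type. All knockout arrays lay below all wild-type arrays, as for 5.23% of all probe sets tested, and the log2 difference was -0.16 ± 0.13 (SE; limma, adjusted p = 0.958). The other subunit genes Dpm1 and Dpm3 stood at -0.19 and 0.061, and B3galnt2, a glycosyltransferase of the dystroglycan sugar chain, at 0.30 ± 0.40 (SE).

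The costamere links the sarcomere to the membrane through integrins, spectrin and intermediate filaments, alongside the dystrophin complex. Of 22 listed genes 13 were tested, of which 7 were higher and 6 lower on average in the knockout, with a median log2 difference of 0.0070 and 0 passing. Actn2, the actinin that crosslinks actin at the Z-disc, read 91.3, 106.5 and 125.7 in the knockout and 56.3, 75.2 and 89.5 in wild type. The groups did not overlap, by a narrow gap between knockout replicate 1 and wild-type replicate 3, and the log2 difference was 0.56 ± 0.21 (SE; limma, adjusted p = 0.923). Sptan1, a spectrin under the membrane, stood at 0.53 ± 0.24 with an adjusted p of 0.923 in limma. Ank3, ankyrin-G, stood at 0.19 without overlap, and at 0.15 in its other probe set, and desmin, Des, stood at 0.11. These genes too were not past the threshold, and the groups failed to overlap for 2 of the 13, both higher in the knockout. Among all probe sets tested the groups did not overlap for 10.7% in either direction and for 5.45% with the knockout higher.

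Of 8 genes for repair of the fibre membrane, 5 were tested, of which 1 was higher and 4 lower on average in the knockout (median log2 difference -0.091; 0 passed). Capn3, a muscle calpain, read 587.6 ± 65.5 in the knockout and 485.6 ± 94.1 in wild type (SD, n = 3 each), a log2 difference of 0.29 ± 0.15 (SE; limma, adjusted p = 0.937). Its 2 other probe sets stood at -0.071 and -0.37, so no direction can be given. The annexins Anxa1, Anxa5 and Anxa6, which bind phospholipids at membrane wounds, stood at -0.19, -0.092 and -0.091.

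**Figure D4:**
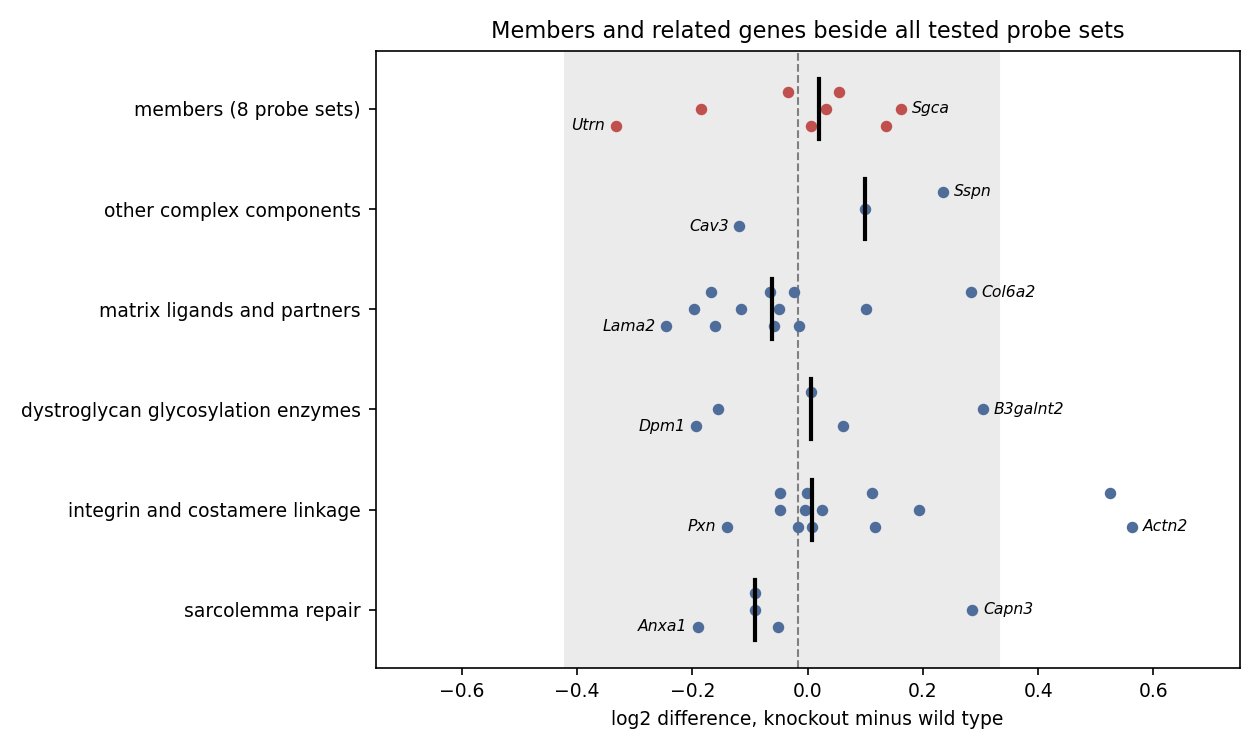
Log2 difference, knockout minus wild type (horizontal axis), of the 8 member probe sets (red) and of the tested genes of 5 lists (blue, 1 probe set per gene). Points are offset vertically only to keep them apart, black bars give the median, the names mark the lowest and highest gene of each row, and the grey band and dashed line give the middle 90% and the median of all 6369 tested probe sets. All 8 members lie inside the band from -0.42 to 0.33, and Actn2 and Sptan1 of the costamere list lie outside it.

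The genes whose pattern over the 6 arrays was nearest to a member were found by the root mean square difference of log2 values, each centred on its mean, among 4915 other tested genes. For Sgca 160631_s_at these were Cyc1, Mdh2 and Mrpl51, at 0.022, 0.029 and 0.033, where the median over all genes was 0.21. The first is a cytochrome of respiratory complex III, the next the mitochondrial malate dehydrogenase and the last a protein of the mitochondrial ribosome. For Dag1 101109_at they were Ilk, Erp44 and Micos13, each at 0.028, where the median was 0.20. Ilk, the integrin-linked kinase, was also on the costamere list, and read 98.0 to 106.4 in the knockout and 99.9 to 108.6 in wild type. The nearest gene was Zfp292 for Dmd (0.067), Emc6 for Utrn 92507_at (0.059), Mtif2 for Sgcb (0.047) and Usp1 for Sgce (0.069), followed by Cacna1b and Zdhhc5, Gpc4 and Ppa2, Abcc9 and Pitpnc1, and Chtop and Usp15. For a probe set that varies little, such as Dag1 101109_at or Sgca 160631_s_at, this measure finds others that vary little. Such nearness therefore need not mean shared rises and falls, and with 6 arrays it is a description of these samples.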

How the data were processed

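Total RNA of whole soleus was measured on Affymetrix arrays, 1 array per sample. The values are signal intensities on a linear scale, deposited by the authors, and the mean without the lowest and highest 2% was 100.07 to 100.08 on each array, so that scaling was kept; the software is not named in the labels. Probe sets were named from the platform annotation, and a RefSeq table (GRCm38.p6) changed 0 symbols.

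Values under the 20th percentile, 7.8, were set to it and log2 was taken. Of 12422 probe sets that are not controls, 6369 over 39.4 on at least 3 of 6 arrays were fitted with limma 3.58.1 in R 4.3.3 (eBayes with trend). Tests were two-sided, and p-values were adjusted by Benjamini-Hochberg over all 6369. With 3 arrays per group the median SE of a log2 difference was 0.18, which sets the precision. For gene lists the probe set of highest mean was used per gene. The genes named in each list were the up to 4 with the smallest p, and those nearest in pattern the 3 closest per member. No set test was run. Second probe sets and the genes below threshold were named after their values were seen. The members and lists were chosen with earlier results of these data known. The fit was tested on simulated data of 6315 probe sets, where it called 52 of 59 with a 4-fold change, 28 of 53 with a 2-fold change and 3 with none. The simulated noise was independent between probe sets and arrays, and no change smaller than 2-fold was put in. These counts therefore do not tell how often differences as small as those of the members would be found. Alternatives were other scalings, floors, filters, variance models, blocks and arrays left out. Figures used matplotlib 3.10.9 in Python 3.11.15.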

Additional observations from a re-analysis of the deposited data

How the results depend on the processing

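In each of the 19 alternatives with a test, 0 member probe sets passed; Dmd, Utrn and Sgcb were left out by the stricter filter. Over all probe sets the count was 1 without the filter (Hoxd1), 1 with adjacent title numbers, which are also equal replicate numbers, as a replicate block (Myh4), and 0 to 1 with an array left out (Tuba1a without knockout replicate 1), against 0 as reported. The replicate block changed no call of a member. No label describes the numbers as pairs, and the deviations of same-numbered samples correlated at -0.0052, 0.035 and -0.0029. Of 157 member differences under the alternatives, 140 kept their sign and 17 did not, and the sign held throughout for Utrn 92507_at (-0.53 to -0.020), Sgca 160631_s_at (0.072 to 0.20) and Sgca 103395_at (0.064 to 0.25). The other floors, filters, eBayes settings and blocks left the difference of each tested member unchanged. Agreement in sign under those alternatives was therefore fixed in advance and is no sign of stability. Dag1 101109_at turned to -0.022 after quantile normalization and -0.024 after cyclic loess, and Sgcb to 0.0046 and 0.0069, and to 0.032 with a common median. With array weights Dmd was -0.0078 and Sgce -0.14. Over the 4 arrays sharing a title prefix Dag1 161183_at was 0.072 and Sgce -0.31, and between the other 2 Dmd was -0.21 and Sgcb 0.066. With single arrays left out Dmd ran from -0.21 to 0.13 (-0.21 without wild-type replicate 3, -0.012 without knockout replicate 2), Sgcb from -0.13 to 0.063 (0.027 without knockout replicate 1, 0.063 without wild-type replicate 3) and Sgce from -0.16 to 0.20 (-0.16 without knockout replicate 2, -0.094 without wild-type replicate 2). For values this close to 0 the cause was not tested. The medians of the 5 lists of related genes each took both signs over the alternatives: -0.073 to 0.33 for other complex components, -0.17 to 0.029 for matrix ligands, -0.16 to 0.072 for glycosylation enzymes, -0.028 to 0.083 for the costamere and -0.16 to 0.040 for membrane repair. Signal near the threshold limits Dmd and Utrn.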
